A study of Arabidopsis thaliana with 3 samples.

Results

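The IQD genes of Arabidopsis thaliana encode a plant-specific family of calmodulin-binding scaffold proteins, and their transcripts were compared between the hy5-1 mutant and its wild type Landsberg erecta (Ler) in the cold. The members were taken by name, as the genes whose symbol in the probe table starts with IQD in capital or small letters. This gave 10 of the 7234 loci with a named feature, 7 written in capitals and 3 in small letters (iqd21, iqd32 and iqd33). The RefSeq gene table lists 33 IQD loci, so 23 members of the family were not analysed here. Within the family the name alone chose the genes, and no measured value entered that step. The family itself was chosen with earlier results of these data known. Every assignment of a value to a gene also rests on an ordering of rows that was found from values.

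IQD proteins share a conserved domain with repeated IQ motifs, short stretches that recruit calmodulin, the calcium sensor of the cell. Many of them sit on microtubules, at the plasma membrane or in the nucleus, and some bind kinesin light chain-related proteins, so that they are thought to link calcium signals to the cytoskeleton and to cell shape. A rise in cytosolic calcium is one of the earliest responses of plant cells to cold. HY5 is a bZIP transcription factor that promotes light-dependent development, and hy5-1 is a mutant allele of it in the Ler background.

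Both groups were 3-week-old plants grown in pots at 22 °C in days of 16 h light and 8 h dark, with 1 further day at 4 °C before RNA extraction. By their labels the plants differed in genotype only, hy5-1 against Ler, but each genotype also kept its own dye on every array. No array held plants that had stayed warm. Each of 3 two-colour arrays, labelled as biological replicates, carried hy5-1 RNA in Cy5 and Ler RNA in Cy3. The labels name whole plants and give no organ. In such bulk samples, fewer cells of a type and less RNA per cell cannot be told apart.

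The deposited values were read as log2 ratios of hy5-1 over Ler, the likely direction at most. Its basis is that the labels put hy5-1 in Cy5, the usual numerator, but the sample titles name Ler first and no source used here states the ratio. Under the opposite reading every sign below would turn together. Every array had the same dye assignment, which means that probe-specific dye effects and genotype differences cannot be told apart. Array 2 stood apart from the others: over all 7234 loci its ratios correlated with those of arrays 1 and 3 at r = 0.512 and 0.504, against 0.759 between arrays 1 and 3. The points are genes and not replicates. No feature was named for HY5 itself, which was not analysed here. Of the markers of other organs, 1 of 5 root genes (EXPA18) and 0 of 7 flower genes had a named feature. So did 1 of 4 senescence genes (SAG29) and 1 of 6 leaf genes (RCA). EXPA18, SAG29 and RCA had means of 0.06, 0.34 and 0.35. Of the 3, 0 passed the test described next, against 17.2% of all loci. SAG29 had 0.58, 1.04 and -0.61 on arrays 1, 2 and 3, and RCA had -0.11, 0.87 and 0.28, so both changed sign. The part of other organs in the results below was not tested.

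Of the 10 IQD genes, 1 passed the threshold, an adjusted p of 0.05 in limma's intercept fit with Benjamini-Hochberg adjustment over all 7234 loci, whereas 17.2% of all loci passed. The gene was IQD22 (AT4G23060), with a ratio above 0. The share of above-0 calls over all loci was 7.88%, and the share of below-0 calls was 9.29%. The family's count lay near this background and is no result about the family as a whole. An unadjusted limma p under 0.05 was reached by 3 IQD genes, against 36.3% of all loci. The other 9 members did not pass, and each of the 10 was measured by only 1 named feature, with no second probe to set beside it.

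IQD22, a gene known as a target of the DELLA repressors of the gibberellin pathway, had log2 ratios of 0.72 on array 1, 0.27 on array 2 and 0.80 on array 3. All 3 arrays lay above 0, with array 2 clearly lower than the other two. Its mean was 0.60 ± 0.29 (SD, n = 3), equal to a 1.51-fold higher level in hy5-1 under the likely direction, with a limma adjusted p of 0.0444. The limma 95% interval of the mean ran from 0.25 to 0.95 on the log2 scale. IQD22 exceeded 94.9% of all loci on array 1, 75.4% on array 2 and 97.9% on array 3. It was the highest of the 10 members on each array. Its lowest value, 0.27, was above all 27 values of the other 9 genes, of which the highest was 0.19.

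The call of IQD22 was close to the threshold and did not hold in several other fits. With each array rescaled to the same median absolute deviation its mean was 0.57 and its limma adjusted p 0.0579, in a fit that called 5.41% of all loci. With all 45220 features of the array fitted together the adjusted p was 0.0758, and 13.1% of the named loci passed. Without replicate 1 and without replicate 3 the limma adjusted p was 0.239 and 0.245, in fits that called 0 loci of any kind, with 1613 and 1585 loci at an unadjusted p under 0.05. Without replicate 2 the mean was 0.76 and the limma adjusted p 0.0307, in a fit that called 19.1% of all loci.

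**Figure D1:**
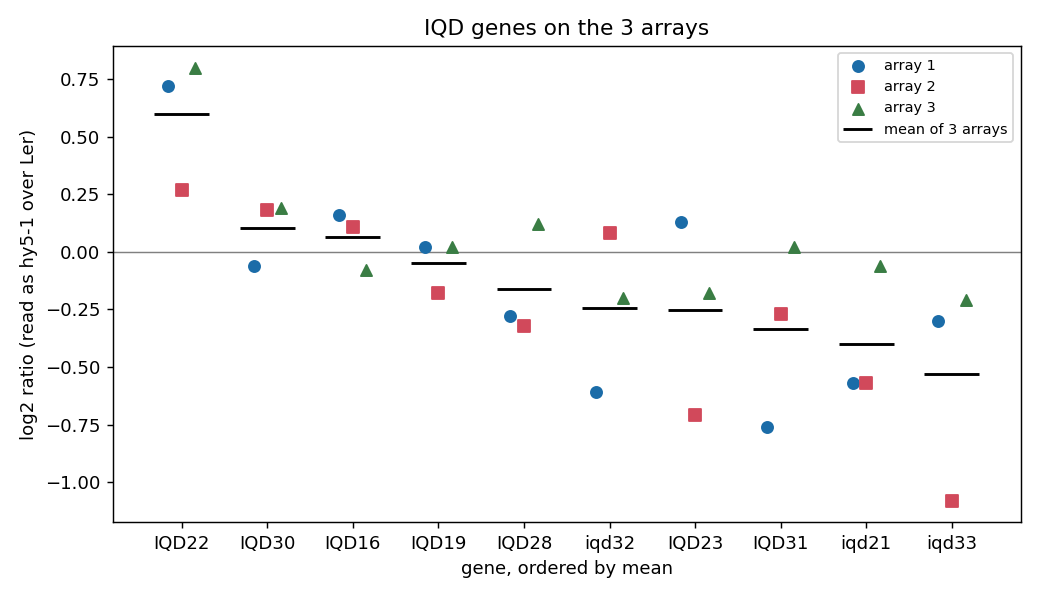
Log2 ratios (y axis, read as hy5-1 over Ler) of the 10 IQD genes (x axis, ordered by mean) on arrays 1 (circles), 2 (squares) and 3 (triangles), with a bar at the mean. All 3 values of IQD22 lie above every value of the other genes, while 7 genes have values on both sides of 0.

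The lowest means belonged to iqd33 and iqd21, the members that were below 0 on all 3 arrays. For iqd33 (AT5G35670) the log2 ratios were -0.30, -1.08 and -0.21 on arrays 1, 2 and 3. Array 2 held the lowest value of any IQD gene on any array, and arrays 1 and 3 were close to each other. The mean of iqd33 was -0.53 ± 0.48 (SD, n = 3; limma adjusted p = 0.121), and its 95% interval ran from -1.03 to -0.03. Without replicate 2 the mean of iqd33 was -0.255. Only 3.36% of all loci were lower than iqd33 on array 2, whereas 22.9% were lower on array 1 and 26.8% on array 3.

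For iqd21 (AT3G49260) the log2 ratios were -0.57, -0.57 and -0.06. Arrays 1 and 2 gave the same value and array 3 was near 0, so the array that differed was another one than for iqd33. The mean was -0.40 ± 0.29 (SD, n = 3; limma adjusted p = 0.106), and its 95% interval ran from -0.75 to -0.05. It was the only member besides IQD22 that passed in any fit on the reordered rows, with a limma adjusted p of 0.0395 when the 10% of loci with the largest SD were left out. In that fit 33.1% of the 6510 remaining loci passed. The filter used the same SD over arrays that enters the test, so this pass is not separate evidence for iqd21.

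Next in order of the mean were 3 genes below 0 with mixed signs. IQD31 (AT1G74690) had log2 ratios of -0.76, -0.27 and 0.02 on arrays 1, 2 and 3, with a mean of -0.34 ± 0.39 (SD, n = 3). Its array 1 value was the lowest of the family on that array, and array 3 was at 0.02. IQD23 (AT5G62070) had 0.13, -0.71 and -0.18, with a mean of -0.25 ± 0.42 (SD, n = 3). Array 2 carried most of that mean, since without replicate 2 it was -0.025. The gene iqd32 (AT1G19870) had -0.61, 0.08 and -0.20, with a mean of -0.24 ± 0.35 (SD, n = 3), and there array 2 was the high one. Without replicate 1 the mean of iqd32 was -0.06 and that of IQD31 -0.125, and without replicate 2 the mean of iqd32 was -0.405. The limma adjusted p-values of IQD31, IQD23 and iqd32 were 0.221, 0.373 and 0.324.

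The remaining 4 genes lay nearer to 0. IQD28 (AT1G14380) had log2 ratios of -0.28, -0.32 and 0.12 on arrays 1, 2 and 3, with a mean of -0.16 ± 0.24 (SD, n = 3). IQD19 (AT4G14750) had 0.02, -0.18 and 0.02, and its mean of -0.05 ± 0.12 (SD, n = 3) turned to 0.02 without replicate 2. Neither gene kept a sign over the arrays. IQD16 (AT4G10640), whose overexpression alters cell shape and growth in Arabidopsis, had 0.16, 0.11 and -0.08 with a mean of 0.06 ± 0.13 (SD, n = 3). IQD30 (AT1G18840) had -0.06, 0.18 and 0.19 with a mean of 0.10 ± 0.14 (SD, n = 3). Their limma adjusted p-values ran from 0.425 for IQD28 to 0.79 for IQD19. The 95% interval of IQD16 ran from -0.19 to 0.32 and that of IQD30 from -0.16 to 0.36, so changes within these bounds are not excluded.

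**Figure D2:**
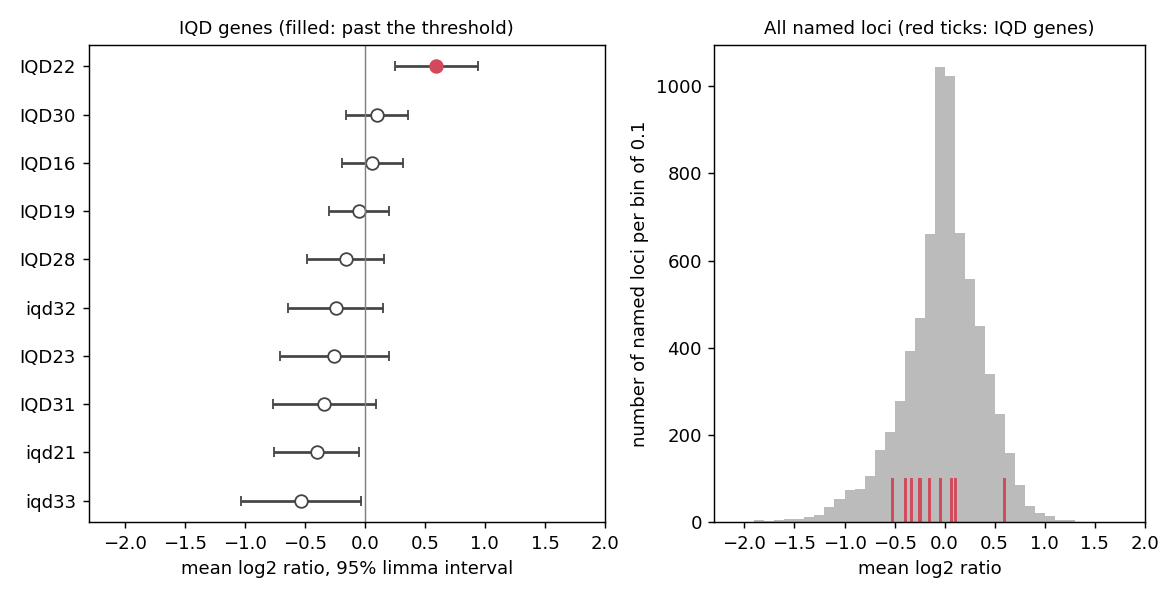
Left, mean log2 ratio (x axis) of each IQD gene with its limma 95% interval, filled where the gene passed the threshold. Right, the number of all 7234 named loci per bin of mean log2 ratio, with red ticks at the IQD genes. The intervals are per gene and not adjusted for the number of loci tested, and those of 7 genes include 0. The IQD means lie within the range of the distribution, from iqd33 above 9.79% of all loci to IQD22 above 95.3%.

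In order of the mean the genes ran IQD22, IQD30, IQD16, IQD19, IQD28, iqd32, IQD23, IQD31, iqd21 and iqd33. Between IQD22 and IQD30 the arrays' values did not overlap. Each later gene in that order overlapped its neighbour over the 3 arrays, so the order of neighbours is not resolved. Genes further apart did not always overlap: iqd33, at -0.21 or lower, lay below all values of IQD30, IQD16 and IQD19. The median of the 10 means was -0.20, against 0 over all loci. In all, 7 members had a mean below 0, against 49.8% of all loci, and 3 had one above 0, against 50.1%. This median was carried by arrays 1 and 2, where the median of the 10 genes was -0.17 and -0.23, and stood at -0.02 on array 3. Without replicate 2 it was -0.05. The median size of the means was 0.25, against 0.22 over all loci, and 0 of the 10 reached a 2-fold change.

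The arrays often differed in sign within a gene. The same sign on all 3 arrays was seen for 3 of 10 IQD genes, 1 above 0 and 2 below 0, whereas 54.5% of all loci kept their sign. The SD over arrays had a median of 0.29 among the IQD genes, from 0.12 for IQD19 to 0.48 for iqd33, against a median of 0.19 over all loci. On array 2, 5 members were lower than on both other arrays, among them IQD22, IQD23 and iqd33, and 37.9% of all loci were so. The difference between array 2 and the mean of arrays 1 and 3 was -0.83 for iqd33, -0.69 for IQD23 and -0.49 for IQD22, but 0.49 for iqd32. Across the 10 genes, Pearson's r was 0.354 between arrays 1 and 2, 0.643 between arrays 1 and 3 and 0.575 between arrays 2 and 3. These 10 points share the same 3 hybridisations and are a description only.

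**Figure D3:**
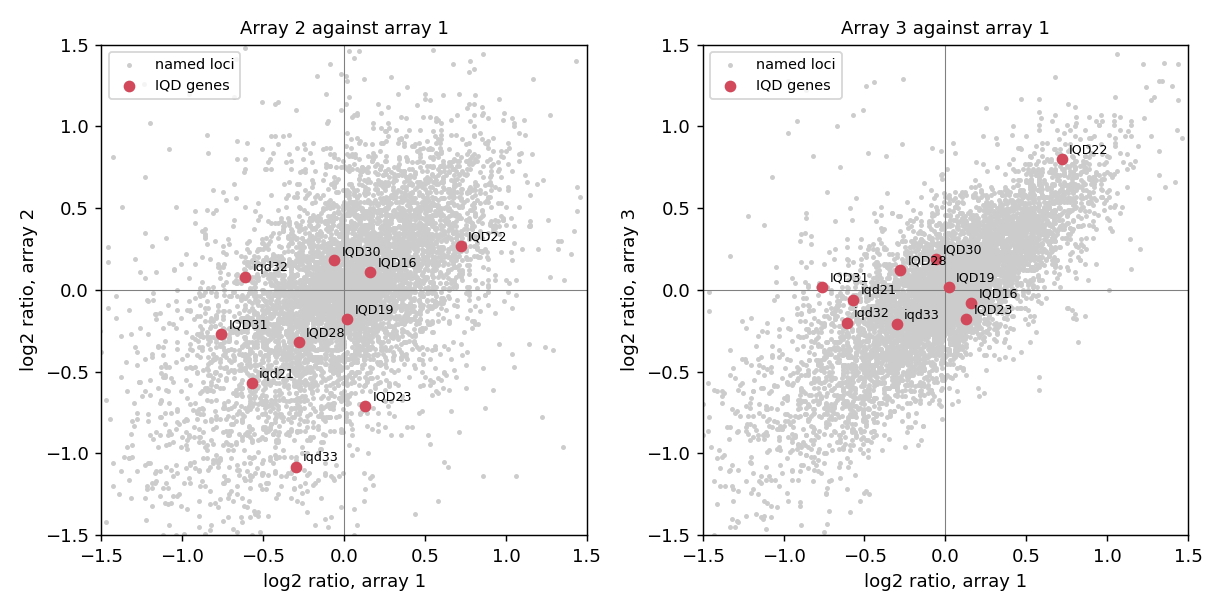
Log2 ratios on array 2 (left) and array 3 (right) against array 1 for all named loci (grey, those beyond the axes not drawn) and the 10 IQD genes (red). IQD22 lies at the upper right in both panels. IQD23 and iqd33 lie low on array 2, at -0.71 and -1.08, and less low on array 3, at -0.18 and -0.21.

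Values around each gene on the array and on the chromosome were compared with its own. For the 10 members, the median ratio of the surrounding features in a block of 5 by 5 on the inferred grid ran from -0.15 to 0.07 over genes and arrays. Around IQD22 it was 0.04, -0.02 and 0.06 on arrays 1, 2 and 3. Around iqd33 it was -0.01 on array 2, where the gene itself was at -1.08. Of the 100 named loci nearest to the members on the chromosomes, 10 for each gene, 19 passed the threshold, or 19%, against 17.2% of all loci. Among the 10 beside IQD22, 1 passed. Among the 10 beside iqd33, 5 passed, with a median mean of 0.01 for those 10 loci. Only IQD23 and iqd33 lie on the chromosome of HY5, 4673 and 1833 protein-coding genes away in the order of assembly TAIR10.1.

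By distance over the 3 log2 ratios, the named loci most like IQD22 were AT1G62790, AT2G18890 and AT3G10300. AT1G62790 had 0.73, 0.27 and 0.80, a Euclidean distance of 0.01 from IQD22. AT2G18890 had 0.68, 0.28 and 0.77, and AT3G10300 had 0.69, 0.24 and 0.84. In all, 9 of the other loci lay within a distance of 0.1 of IQD22.

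The partners and relatives of IQD proteins were mostly not among the named loci. Of 14 lists of calcium, calmodulin and cytoskeleton genes, 10 had 0 members with a named feature. Among them were the calmodulins, the IQM proteins, the CAMTA transcription factors and the kinesin light chain-related proteins. Only 7440 of the 45220 features were named, and whether unnamed ones measure these genes is not known. The other 4 lists held 19 genes. Of these, 1 was above 0 and 2 were below 0 past the threshold, 15.8% against 17.2% of all loci, and all 3 were tubulins. The median of the 19 means was -0.18, against 0 over all loci.

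Tubulins, the building blocks of the microtubules that many IQD proteins decorate, had 8 measured members. Under the likely direction 1 rose, 2 fell and 5 did not pass. Over all loci 7.88% passed above 0 and 9.29% below 0, and 8 genes are too few for a result about tubulins. TUB7 (AT2G29550), a beta-tubulin, had log2 ratios of 0.53, 0.60 and 0.44 on arrays 1, 2 and 3, and its mean was 0.52 ± 0.08 (SD, n = 3; limma adjusted p = 0.029). Its 3 arrays lay close together. The alpha-tubulin TUA5 (AT5G19780) had -1.07, -0.88 and -0.34, and its mean was -0.76 ± 0.38 (SD, n = 3; limma adjusted p = 0.0389). Its neighbour TUA3 (AT5G19770) had -0.73, -0.93 and -0.32, and its mean was -0.66 ± 0.31 (SD, n = 3; limma adjusted p = 0.0398). TUA3 and TUA5 are closely related copies, so their probes may not measure separate transcripts. The median of the 8 tubulin means was -0.04. With each array rescaled in the same way as above, 0 of the 19 genes passed, in a fit that called 5.41% of all loci.

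**Figure D4:**
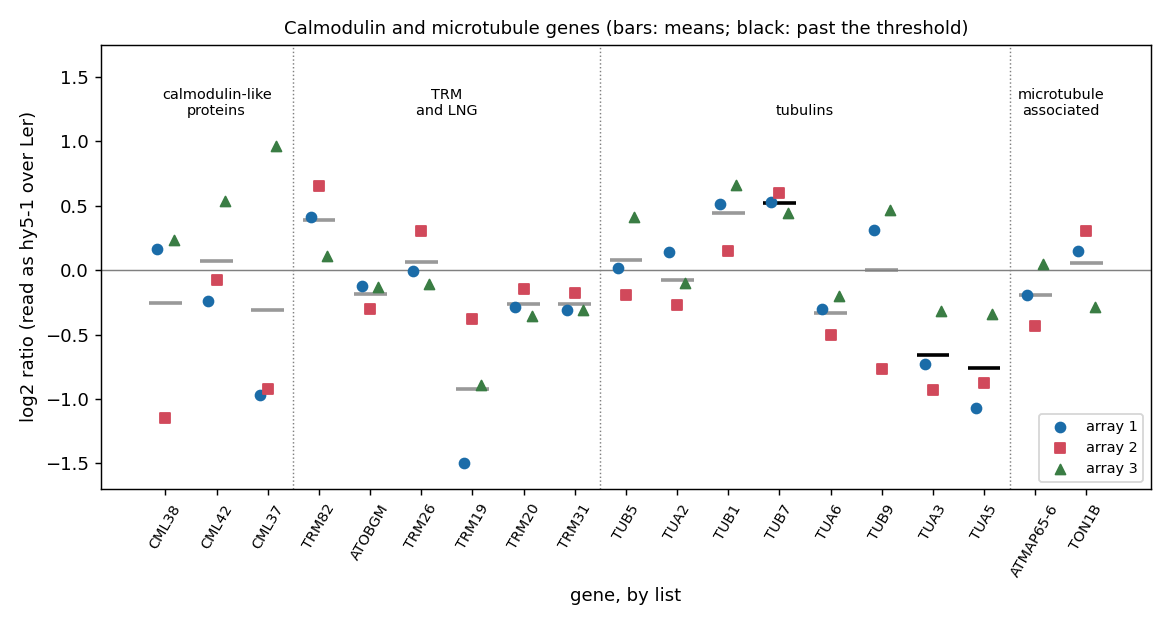
Log2 ratios (y axis, read as hy5-1 over Ler) of the 19 measured genes of 4 lists (x axis) on arrays 1 (circles), 2 (squares) and 3 (triangles), with bars at the means, black where the gene passed the threshold. TUB7 lies above 0, and TUA3 and TUA5 lie below 0, on all 3 arrays.

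Calmodulin-like proteins, calcium sensors related to calmodulin, had 3 measured members and 0 passed, against 17.2% of all loci. CML37 (AT5G42380) had log2 ratios of -0.97, -0.92 and 0.96, and CML38 (AT1G76650) had 0.16, -1.15 and 0.23, so both changed sign between arrays. CML42 (AT4G20780) had a mean of 0.07. Of the 6 measured genes matched as TRM, most are named for a motif that recruits the microtubule organiser TON1, and 0 passed. With 3 and 6 genes, a count of 0 is no result about either list. TRM19 (AT3G53540) came closest, with -1.50, -0.38 and -0.89 and a limma adjusted p of 0.0503. TRM82 (AT1G03110), with a mean of 0.39, was matched by its symbol but is listed as a tRNA modification gene. TON1B (AT3G55005) and ATMAP65-6 (AT2G01910), a microtubule-associated protein by its family, had means of 0.05 and -0.19 and did not pass.

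**Figure D5:**
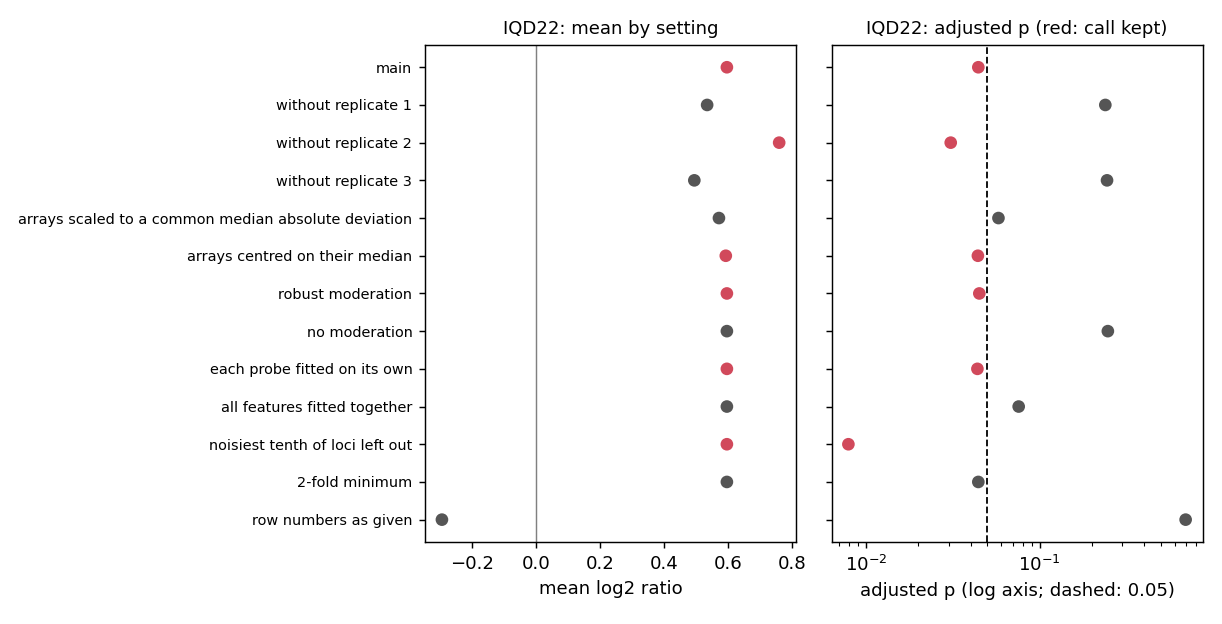
Mean log2 ratio (left) and limma adjusted p on a log axis (right; unmoderated statistic where named) of IQD22 under the settings on the y axis, red where the call was kept. The mean stayed between 0.50 and 0.76 except with the row numbers as given, where the feature read as IQD22 had -0.29, and the call was kept in 5 of the 12 other settings.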

How the data were processed

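The authors deposited 1 table of log ratios per array, used here as log2 values; no source used here states their base, numerator, normalisation or software, and base 2 was assumed. The table held 45220 features on each of 3 arrays with 0 missing values, medians of 0.01, 0 and 0, and no intensities, so signal over background is unknown and the array number limits the precision. Genes were named for 7440 features (7234 loci) through the platform annotation and the RefSeq table of assembly TAIR10.1. Value rows were matched to features by an ordering found from the values in earlier work. Under it, the mean variance within 7 genes with 10 or more features was 0.086 of that of all named features, against 0.896 with row numbers as given. Every gene name rests on it.

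Where a locus had several features, their values were averaged. Each locus was tested against 0 with limma 3.58.1 in R 4.3.3 (intercept fit, empirical Bayes, 2 residual and 3.04 prior degrees of freedom, Benjamini-Hochberg over 7234 loci, threshold 0.05), after the fit was tested on simulated data. Every IQD locus was named, as were list members past the threshold and the 3 loci nearest to the IQD gene with the largest mean; CML, TRM, TON1B and ATMAP65-6 genes that did not pass, and the other organs' markers, were named after their values were seen. The members and lists were chosen with earlier results of these data known. Alternatives changed scaling, centring, moderation, the features fitted, filters, the row order and the arrays included. No sequence is printed.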

Additional observations from a re-analysis of the deposited data

How the results depend on the processing

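Over all loci 17.2% passed, against 5.41% with scaled arrays, 0.0415% without moderation and 13.1% with all features fitted together. The share was 2.09% with a 2-fold minimum and 33.1% without the 10% of loci with the largest SD. With row numbers as given it was 6.79%. Without replicate 2 it was 19.1%, whereas 0 loci passed without replicate 1 or without replicate 3. A count of 0 in those last fits therefore says nothing about the members. The counts below are to be read against these shares. The numbers of IQD genes past the threshold, in all and above 0, were 1 and 1. With 1 array removed they ranged from 0 to 1, and were 0 with scaled arrays, without moderation, with all features fitted together and with a 2-fold minimum. Without the loci of largest SD 2 passed, 1 of them below 0, whereas 0 were below 0 in the other settings. At an unadjusted limma p under 0.05 there were 3 IQD genes. For the calcium, calmodulin and cytoskeleton lists the count of 3 ranged from 0 to 3 with 1 array removed. It was 0 with scaled arrays, without moderation and with the 2-fold minimum, 1 with all features fitted together and 6 without the noisiest loci. Leaving out 1 array moved the median of the IQD means to between -0.278 and -0.053; it was -0.017 with row numbers as given. IQD19 turned from -0.047 to 0.02 without replicate 2, its range being -0.08 to 0.02. With row numbers as given, the features read as IQD22 and IQD23 had -0.293 and 0.03, and IQD16 passed at 0.70. The fits with 1 array removed had fewer arrays, and the fit without the loci of largest SD tested 6510 loci in place of 7234. What caused these shifts was not tested. The gene iqd33 was removed with the noisiest loci and has no value there. With ratios alone, the limit that dim spots set cannot be known. No paired analysis was possible because there is 1 group of arrays, and the 2 genotypes already share each array.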
